A study of Mus musculus with 5 samples.

Results

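JAK kinases and STAT factors carry cytokine signals from receptors at the cell surface to genes in the nucleus, and 9 genes of these families were followed here in mouse colon: the kinase genes Jak1, Jak2 and Tyk2 and the transcription factor genes Stat2, Stat3, Stat4, Stat5a, Stat5b and Stat6. They were taken by gene symbol, with all of their probes on the arrays, and made up 9 of 32917 genes and named features and 13 of 41590 probes that were tested. Their relative Jak3 is given below with the wider pathway. Single-colour Agilent arrays measured whole-colon RNA of 8-week-old wild-type C57BL/B6 mice, 1 mouse an array. The control group held 2 untreated mice. The group NT-3N 3hr held 3 mice whose colon was taken 3 hr after an injection of NT-3N into a vein. NT-3N is a modified human IL-11 that acts as an agonist of its receptor. No vehicle injection is described for the controls, so the injection and the agonist cannot be told apart. The comparison was made to find target genes of IL-11 in this tissue.

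A cytokine that binds its receptor brings JAK kinases together, the kinases phosphorylate the receptor, and STAT proteins dock there, are phosphorylated in turn, pair up and enter the nucleus. IL-11 binds a chain of its own, IL-11 receptor alpha, together with the shared chain gp130, with STAT3 as the main STAT of this receptor family. In the colon STAT3 is known for its part in epithelial repair and inflammation, STAT6 for responses to IL-4 and IL-13, and STAT2 for interferon responses. Phosphorylation switches these proteins on, and an array of RNA does not measure it.

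On each array between 70.6% and 72.9% of 56605 probes stood well above background and 0 spots were saturated. Across features, which are not independent replicates, arrays correlated at 0.980 to 0.992, and the controls correlated with each other at 0.984. All 8 colon epithelium markers, Epcam, Muc2 and Vil1 among them, were well above background on all 5 arrays. All 13 probes of the 9 genes were well above background on all 5 arrays and none carried an outlier flag. Levels are given as quantile-normalized log2 signal, in which a step of 1 is a doubling. A probe's brightness depends on its own sequence, so levels are compared between arrays and never between genes.

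Stat3 rose after NT-3N, by 1.67-fold on its brighter probe, and it was the one member past the threshold in limma. In whole tissue, more of an RNA per cell and more cells that hold it cannot be told apart. None of the other 8 genes passed an adjusted p of 0.05 in either direction, among them the kinase genes Jak1, Jak2 and Tyk2 and the Stat5a and Stat5b genes that lie beside Stat3 on chromosome 11. Of the members 1 was thus called higher, against 0.125% of all genes and features called higher, and 0 were called lower, against 0.0182%. The median log2 fold change of the 9 genes was -0.044 and that of all features -0.019. At an unadjusted p under 0.05, 2 members were higher and 0 lower, where 9.62% of all features passed in either direction. The arrays of the groups did not overlap for 3 members, as for 28.4% of all features.

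**Figure D1:**
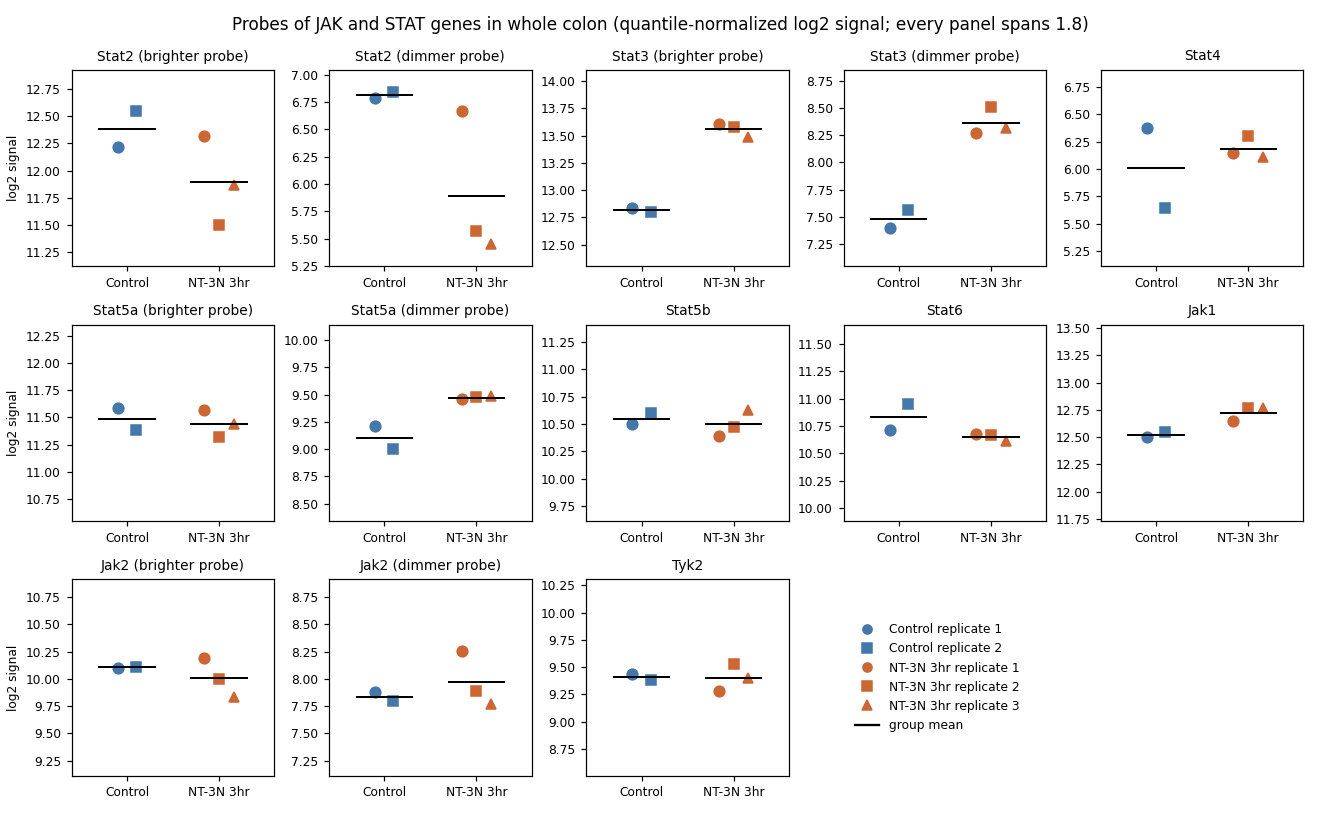
Quantile-normalized log2 signal (vertical axis) of all 13 probes of the 9 genes on each of the 5 arrays, with Control in blue, NT-3N 3hr in orange and horizontal lines at the group means. Every panel spans 1.8 on the log2 scale. Both Stat3 probes lie higher on the 3 NT-3N arrays than on both control arrays, with 12.84 and 12.80 against 13.48 to 13.61 on the brighter probe.

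Among the kinases, JAK1 serves the receptors of the gp130 family and those of interferons and of IL-2 and IL-4. Its gene had a log2 signal of 12.50 and 12.54 in Control and of 12.65, 12.76 and 12.77 after NT-3N 3hr. All 3 NT-3N arrays lay above both controls. The log2 fold change was 0.21 with a 95% confidence interval of 0.0096 to 0.40 and a limma adjusted p of 0.50, so this small difference did not pass the threshold.

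JAK2 serves the receptors of growth hormone, erythropoietin and several colony-stimulating factors, and also gp130. On its brighter probe the log2 signal was 10.10 and 10.11 in Control and 10.19, 10.00 and 9.83 after NT-3N. The groups overlapped, and the log2 fold change of -0.097 had an interval of -0.41 to 0.21 and an adjusted p of 0.84 in limma. The dimmer probe read 7.88 and 7.79 in Control and 8.25, 7.89 and 7.77 after NT-3N, also with overlap, and its log2 fold change was 0.13 with an interval of -0.27 to 0.54. Both Jak2 probes were highest on NT-3N replicate 1 and lowest on NT-3N replicate 3.

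TYK2 pairs with JAK1 or JAK2 at the receptors of type I interferon, IL-10, IL-12 and IL-23. Tyk2 was at 9.43 and 9.38 in Control and at 9.28, 9.53 and 9.40 after NT-3N on the log2 scale. The groups overlapped. Its log2 fold change was -0.0058 with an interval of -0.28 to 0.27 and a limma adjusted p of 0.99, and this sign turned under the median scaling, to 0.021.

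Stat3 encodes the main factor of the gp130 receptors, and the 250 bases before its start site in RefSeq GRCm38.p6, chr11:100939541-100939790 on the minus strand, are shown because it was the member that rose.

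Stat3: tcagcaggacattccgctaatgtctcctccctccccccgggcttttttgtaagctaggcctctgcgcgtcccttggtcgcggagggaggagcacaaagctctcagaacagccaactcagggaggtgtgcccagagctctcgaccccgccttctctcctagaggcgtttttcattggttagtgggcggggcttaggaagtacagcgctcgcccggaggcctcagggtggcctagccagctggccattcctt

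This window was searched on both strands for the STAT binding motif GAS (TTCNNNGAA) and for the interferon motif ISRE, and neither was found in it. GAS was found in 0 of the 12 windows of the 9 members and in 7.02% of 32851 promoter windows of the same length. The members have 12 windows because 3 of them have several starts.

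The brighter Stat3 probe had a log2 signal of 12.84 and 12.80 in Control and of 13.61, 13.58 and 13.48 after NT-3N. The 3 NT-3N arrays lay close together and apart from both controls. Its log2 fold change was 0.74, with an interval of 0.55 to 0.92, a limma adjusted p of 0.043 and a standard error of 0.077. The difference thus exceeded the standard deviations within the groups, 0.027 (n = 2) and 0.065 (n = 3). An exact permutation test over the 10 splits of 5 arrays gave the smallest p that this design allows, 0.1. Jak1 and Stat6 reached the same p in that test, so it does not set Stat3 apart from them.

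The dimmer Stat3 probe read 7.39 and 7.57 in Control and 8.27, 8.50 and 8.31 after NT-3N. It too had no overlap, and its log2 fold change was 0.88 with an interval of 0.56 to 1.20, but its adjusted p was 0.11 over all probes in limma. Of the 13 member probes 1 was called higher, against 0.13% of all probes. The brighter probe's log2 fold change minus that of the dimmer one was -0.14 with an interval of -0.45 to 0.16, so the Stat3 probes were not shown to differ from each other.

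The rise of Stat3 was modest among the genes that were called. Of the 47 called features 41 were higher, and among these 41 Stat3 had the smallest log2 fold change. By p it was the 40th of the 47. Taken within each array, Stat3 minus another member was higher on every NT-3N array than on every control array for all 8 other members, by 0.53 on the log2 scale against Jak1, 0.56 against Stat4 and up to 1.22 against Stat2. The same held of Stat3 minus a feature for 87.3% of the other 32916 features.

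**Figure D2:**
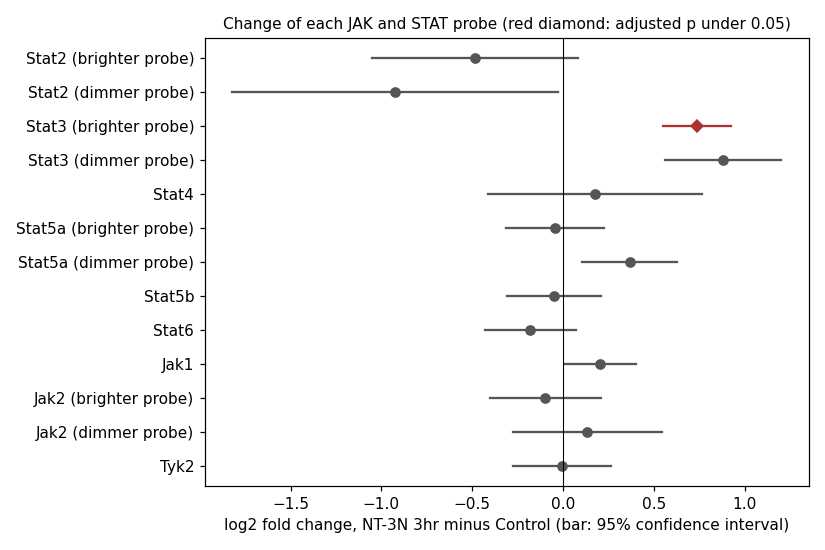
Log2 fold change of each of the 13 probes, NT-3N 3hr minus Control (horizontal axis), with 95% confidence intervals from the limma fit over all probes. The brighter Stat3 probe, at 0.74, is the single probe past an adjusted p of 0.05, and the widest interval is that of the dimmer Stat2 probe.

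The call of Stat3 rested on single arrays and on the settings of the test. It was lost without Control replicate 1 (limma adjusted p of 0.18), without Control replicate 2 (0.16), without NT-3N replicate 2 (0.19) and without NT-3N replicate 3 (0.20), while without NT-3N replicate 1 it held at 0.048. Over 18 alternatives the log2 fold change stayed between 0.71 and 0.81, and the adjusted p ran from 0.0067 to 0.49, with the call kept in 10 and lost in 8.

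**Figure D3:**
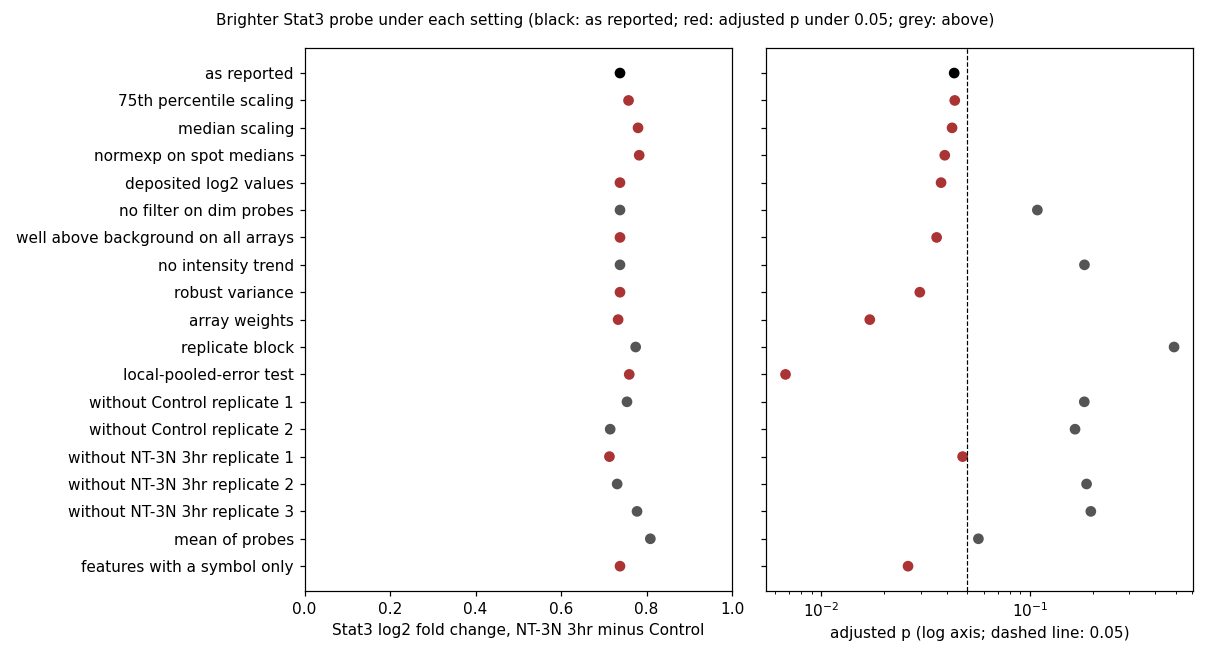
The brighter Stat3 probe as reported and under 18 alternative settings: log2 fold change, NT-3N 3hr minus Control (left), and adjusted p on a log axis with a dashed line at 0.05 (right). The change lies between 0.71 and 0.81 throughout, while the adjusted p lies on both sides of the line.

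Among all marker lists, the sums lay apart between the groups for neutrophils, smooth muscle and erythroid cells and overlapped for the others, B cells included. Of all single features 28.4% did not overlap between the groups. The summed linear signal of the neutrophil markers that passed the filter was 83.2 and 80.7 in Control and 532, 180 and 227 after NT-3N. These were 3 of 5 markers on the array, all 3 higher and none called, and Cxcr2 and Ngp did not pass the filter. S100a8 and S100a9 were well above background on the 3 NT-3N arrays and on no control array. They were thus tested only through the group in which they were higher, so the gap between these sums cannot be read as a change of neutrophils. Camp, well above background on all 5 arrays, had a log2 fold change of 0.19 without overlap, at a limma adjusted p of 0.74. The 6 smooth muscle markers were all lower with none called, and their sum was 445674 and 460166 in Control against 326964 to 416455. All 6 B cell markers were higher and none was called, with a sum of 4763 on Control replicate 1, 1089 on Control replicate 2 and 4430 to 5339 after NT-3N. The erythroid sum, over 2 tested of 3 markers on the array, was 5138 and 4755 in Control and 6646, 7355 and 5731 after NT-3N. Both markers, Hba-a1 and Alas2, were higher without overlap and neither was called. Nearly all of the erythroid sum was signal of Hba-a1. Over all marker lists 1 gene was called, the glial Gfap, named after its values were seen, with a log2 fold change of 1.84 at an adjusted p of 0.012 in limma. The part of these cells in the change of Stat3 was not tested.

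STAT5A and STAT5B are close relatives that serve growth hormone, prolactin and IL-2. Stat5b was at 10.50 and 10.60 in Control and at 10.39, 10.47 and 10.63 after NT-3N. The groups overlapped, and the log2 fold change was -0.050 with an interval of -0.31 to 0.21. In RefSeq GRCm38.p6 Stat5b, Stat5a and Stat3 follow each other on chromosome 11, and on the other side of Stat3 lies Cavin1, with a log2 fold change of -0.34 at an adjusted p of 0.34 in limma.

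The Stat5a probes gave unlike readings. The brighter probe read 11.58 and 11.39 in Control and 11.56, 11.32 and 11.44 after NT-3N, with overlap and a log2 fold change of -0.044 (interval -0.32 to 0.23). The dimmer probe read 9.212 and 8.998 in Control and 9.45, 9.48 and 9.48 after NT-3N, with no overlap and a log2 fold change of 0.37 (interval 0.11 to 0.63). Its limma adjusted p was 0.38, so the dimmer probe did not pass the threshold either.

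Taken within each array, the brighter Stat5a probe exceeded the dimmer one by 2.37 and 2.39 log2 units in Control and by 2.11, 1.84 and 1.96 after NT-3N. The difference between their fold changes was -0.41 with an interval of -0.66 to -0.16. Its limma adjusted p was 0.998 over 8153 pairs of probes of one gene, of which 0% were called and 3.84% had an unadjusted p under 0.05. Of the 4 members with several probes, Stat5a was the one whose interval left out 0. The other two differences were 0.44 for Stat2 (interval -0.14 to 1.02) and -0.23 for Jak2 (interval -0.49 to 0.028). Which transcripts each probe detects was not analysed here.

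STAT6 is the factor of IL-4 and IL-13. Stat6 was at 10.72 and 10.95 in Control and at 10.68, 10.67 and 10.61 after NT-3N. All 3 NT-3N arrays lay below both controls, though NT-3N replicate 1 was only just below Control replicate 1. The log2 fold change was -0.18 with an interval of -0.44 to 0.072 and an adjusted p of 0.64 in limma. Leaving out Control replicate 1 gave -0.30, and leaving out Control replicate 2 gave -0.065.

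STAT4 acts downstream of IL-12 in T cells and NK cells. Stat4 was at 6.37 and 5.65 in Control and at 6.15, 6.31 and 6.11 after NT-3N, so the controls lay on both sides of the NT-3N arrays. The log2 fold change of 0.18 had an interval of -0.42 to 0.78 and a limma adjusted p of 0.85, and it was -0.19 without Control replicate 2. The summed signal of 7 T cell markers was 4931 and 4276 in Control and 4164 to 5424 after NT-3N, and that of 4 NK cell markers was 1313 and 1968 against 1406 to 2475, so both ranges overlapped as that of Stat4 did.

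STAT2 works with IRF9 in the complex that interferons use to switch on antiviral genes. The 250 bases before its start, chr10:128270248-128270497 on the plus strand of GRCm38.p6 in RefSeq, are shown with a match to the ISRE motif, read on the other strand, in capitals.

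Stat2: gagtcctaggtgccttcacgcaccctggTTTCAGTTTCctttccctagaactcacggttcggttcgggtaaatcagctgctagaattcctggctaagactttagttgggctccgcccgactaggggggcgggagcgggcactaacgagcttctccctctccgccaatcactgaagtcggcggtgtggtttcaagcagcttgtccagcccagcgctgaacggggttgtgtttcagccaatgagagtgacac

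The match begins 222 bases before the start. Among the 12 member windows the motif was also found in that of the second start of Stat4, beginning 97 bases before it, and 2.977% of 32851 promoter windows hold it. A match in letters is not a measured binding site.

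Stat2 was not called, and its NT-3N arrays were spread. The brighter probe read 12.22 and 12.54 in Control and 12.32, 11.50 and 11.87 after NT-3N, so NT-3N replicate 1 lay between the controls and the others below them. The log2 fold change was -0.49 with an interval of -1.06 to 0.086 and a limma adjusted p of 0.58, and it was -0.29 without NT-3N replicate 2. The dimmer probe read 6.79 and 6.85 in Control and 6.66, 5.57 and 5.45 after NT-3N, with no overlap, a log2 fold change of -0.92, an interval of -1.82 to -0.030 and an adjusted p of 0.51. That log2 fold change was -0.38 with normexp background correction and -1.32 without NT-3N replicate 1. Over the 13 member probes, 4 were higher and 1 lower at an unadjusted p under 0.05, where 9.54% of all probes passed in either direction. Of the 13 member probes, 6 did not overlap between the groups, as did 28.2% of all probes.

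Genes that the STAT2 complex is known to switch on had lower mean levels after NT-3N, but none was called in limma. All 13 tested of a list of 15 had a negative log2 fold change, with a median of -1.39 against -0.019 over all features. At an unadjusted p under 0.05, 6 of them were lower. Of all 32917 features 17654 had a negative log2 fold change, and 1538 were lower at an unadjusted p under 0.05. This list, too, was chosen with earlier results of these data known. Rsad2, an interferon-induced antiviral enzyme, was at 10.67 and 11.74 in Control and at 10.17, 7.85 and 9.47 after NT-3N, and its log2 fold change was -2.05 with an adjusted p of 0.43 in limma. The log2 fold change was -1.93 for Usp18, a brake on interferon receptors, and -1.80 for Ifit2, an antiviral protein that binds RNA, with adjusted p of 0.44 and 0.46. For all 3 of these genes NT-3N replicate 2 was the lowest array by over 1 log2 unit. Without that array the log2 fold changes were -1.39 for Rsad2, -1.27 for Usp18 and -1.19 for Ifit2, and without Control replicate 2 they were -1.51, -1.66 and -1.28. A local-pooled-error test, written here after the published description of the test the study used, called 13 pathway genes lower, among them Rsad2, Usp18 and Ifit2. Over all 32917 features that test called 348 in either direction, where limma called 47. On simulated data a far larger share of the calls of that test than of limma was false. Those data were drawn from the variance model that limma itself fits, so they cannot rank the tests on real arrays. These calls are given only as an alternative.

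The brighter Stat2 probe and the summed signal of these genes ranked the arrays alike. The summed linear signal was 184801 and 253006 in Control and 194074, 63873 and 106486 after NT-3N. Such a sum gives most weight to the brightest genes. The order of the 5 arrays by this sum was the same as by the brighter Stat2 probe, with Control replicate 2 highest and NT-3N replicate 2 lowest. NT-3N replicate 1 lay between the controls in both. Taken singly, the genes did not all follow this order. For 7 of the 13 tested, NT-3N replicate 1 too lay below both controls, so the groups did not overlap. Of all features 28.4% did not overlap, in either direction. On the dimmer Stat2 probe NT-3N replicate 3 was lowest and NT-3N replicate 1 lay below both controls. Irf9, the DNA-binding part of the complex, was at 12.14 and 12.25 in Control and at 12.65, 12.01 and 12.14 after NT-3N.

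**Figure D4:**
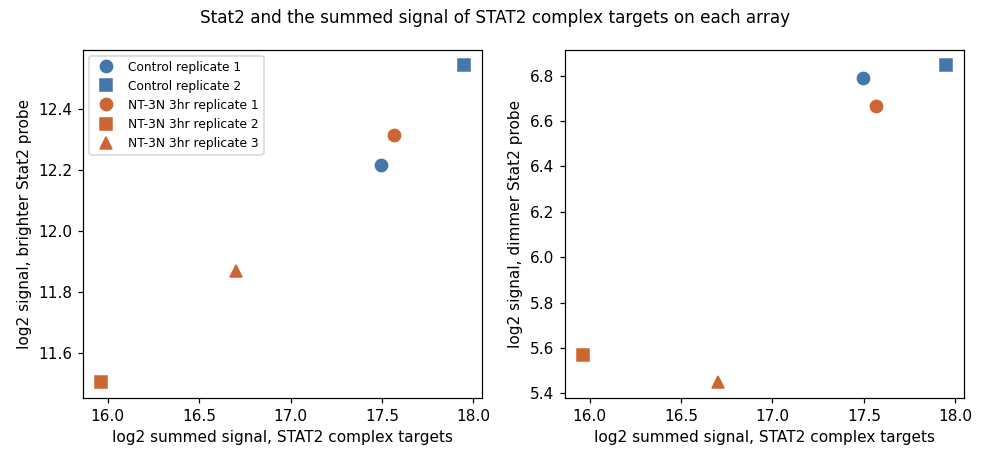
Log2 signal of the brighter (left) and dimmer (right) Stat2 probe against the log2 of the summed linear signal of the 13 tested STAT2 complex targets, 1 point an array. NT-3N replicates 2 and 3 lie at the lower left of both panels, and NT-3N replicate 1 lies near the controls.

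The genes whose pattern over the 5 arrays was most like that of a member were looked up among 6646 genes that were well above background on all arrays and varied by at least 0.5 on the log2 scale. With 5 arrays many genes correlate highly with any other, and 136 genes had a Pearson correlation over 0.95 with Stat2, 147 with Stat3 and 32 with Stat4. These correlations describe the arrays and share their libraries. For Stat2 the most alike were Ifi35 (r = 0.9996), Gm31267 (0.998) and Oas2 (0.997). Ifi35 and Oas2 are interferon-induced genes, and Oas2 is also on the list of STAT2 complex targets.

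For Stat3 they were Tha1 (r = 0.9998), Map3k8 (0.999) and Nedd4l (0.998). Map3k8 encodes a kinase upstream of ERK, Nedd4l a ubiquitin ligase and Tha1 a threonine aldolase. Their log2 fold changes were 0.61, 1.26 and 0.74, and of the 3 only Nedd4l was called, with a limma adjusted p of 0.033. For Stat4 they were Robo3 (r = 0.986), Aqp8 (0.985) and Bcl2a1d (0.983), with adjusted p between 0.71 and 0.87. The other 6 members spanned less than 0.5 on the log2 scale over all 5 arrays.

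In the wider JAK-STAT pathway 118 of 127 listed genes were tested, each counted once. Of these 6 were called higher and 0 lower, while 26 were higher and 11 lower at an unadjusted p under 0.05. Over all 32917 features 41 were called higher and 6 lower, while 1629 were higher and 1538 lower at that unadjusted p. For the listed genes the median is given next. The median log2 fold change of the 118 tested genes was 0.075, against -0.019 for all features. Several of the genes stand on more than 1 list.

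Receptor chains of the gp130 family were tested for all 7 genes listed, and 1 was called. Of these 7 genes 5 were higher and 2 lower, with 2 higher and 1 lower at an unadjusted p under 0.05. Osmr, a receptor subunit for oncostatin M, was at 8.92 and 8.85 in Control and at 10.80, 11.08 and 11.05 after NT-3N. It rose by 2.09 on the log2 scale with an adjusted p of 0.0057 in limma. The chains that IL-11 itself uses are given for their role, outside the rule by which genes were named. Il6st, which encodes gp130, was at 10.79 and 10.87 in Control and at 11.37, 11.73 and 11.82 after NT-3N, with no overlap and a log2 fold change of 0.80 at an adjusted p of 0.17. Il11ra1, which encodes the IL-11 receptor chain, was at 12.94 and 12.98 in Control and at 12.63, 12.88 and 12.79 after NT-3N. All 3 NT-3N arrays lay below both controls, and the log2 fold change was -0.20 at a limma adjusted p of 0.59. Of 29 other cytokine receptor genes tested 0 were called in limma, with 3 higher and 0 lower at an unadjusted p under 0.05, and their median was 0.047.

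Inhibitors of the pathway were led by Socs3, which blocks gp130 and its kinases and is itself a target of STAT3. Socs3 was at 10.63 and 10.11 in Control and at 12.88, 13.21 and 13.14 after NT-3N. It rose by 2.71 on the log2 scale, with an adjusted p of 0.0087 in limma, and was 1 of 19 inhibitors called. The list had a median log2 fold change of -0.037, with 8 genes above 0 and 11 below. Of 10 partners and adaptors 0 were called in limma, with 0 higher and 1 lower at an unadjusted p under 0.05, and their median was -0.0081.

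Among known targets of each factor, those of STAT3 held the most calls, on the longest of the target lists. All lists were chosen with earlier results of these data known, so these counts are a description and no independent test. Of 20 tested genes 17 were higher and 3 lower, 4 were called higher, and the median log2 fold change was 0.74. At an unadjusted p under 0.05, 13 were higher and 2 lower. Of all 32917 features 15263 were higher, 41 were called higher, and at an unadjusted p under 0.05 1629 were higher and 1538 lower. One of the 20, Hamp, was well above background on the 3 NT-3N arrays and on no control array, and so was tested only through the group in which it was higher. Over the 19 others 16 were higher, 4 were called, 12 were higher at an unadjusted p under 0.05, and the median was 0.68, against -0.016 for all features well above background on every array. Besides Socs3 the calls were Lbp, which encodes the lipopolysaccharide-binding protein, Cebpd, a transcription factor of the acute phase, and Timp1, an inhibitor of matrix proteases. Lbp went from 6.59 and 6.39 in Control to 8.33, 8.31 and 8.24 after NT-3N, with a log2 fold change of 1.80 at an adjusted p of 0.012. Cebpd rose by 1.73 and Timp1 by 1.66 on the log2 scale, with adjusted p of 0.043 and 0.012. Over 18 alternatives the call was lost in 5 for Socs3 and Lbp, in 7 for Cebpd and in 6 for Timp1.

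The target lists of the other factors held a single call. Of 12 STAT6 targets 1 was called, the eosinophil chemokine Ccl11, which was at 8.83 and 8.76 in Control and at 9.81, 10.00 and 9.89 after NT-3N, with a log2 fold change of 1.105 at an adjusted p of 0.035 in limma. That call was lost in 9 of 18 alternatives, with an adjusted p of 0.051 under normexp background correction, 0.13 without Control replicate 1, 0.11 without Control replicate 2, 0.16 without NT-3N replicate 2 and 0.23 without NT-3N replicate 3. Of the 12 STAT6 targets 10 were higher and 2 lower, with a median of 0.33. At an unadjusted p under 0.05 in limma, 4 of them were higher and 0 lower. Of all 32917 features 15263 were higher, and 1629 were higher and 1538 lower at that unadjusted p. Of 10 STAT5 targets 0 were called in limma, with 2 higher and 1 lower at an unadjusted p under 0.05 and a median of 0.18. Of 6 STAT4 targets 0 were called, with 0 at an unadjusted p under 0.05 and a median of -0.085. The kinase gene Jak3, which serves receptors with the common gamma chain in lymphocytes, was at 7.88 and 7.82 in Control and at 8.74, 8.64 and 8.70 after NT-3N, with no overlap and a log2 fold change of 0.84 at a limma adjusted p of 0.077.

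**Figure D5:**
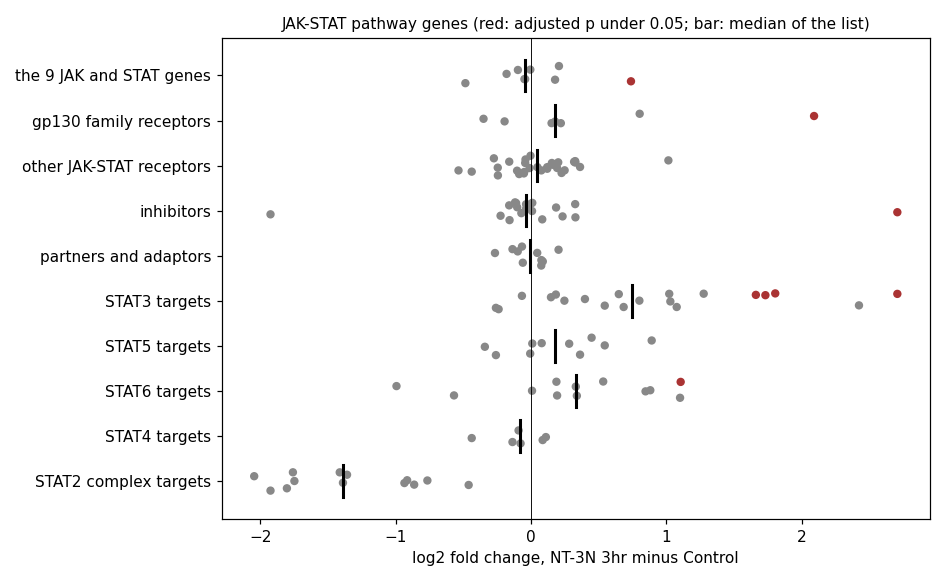
Log2 fold change, NT-3N 3hr minus Control (horizontal axis), of each tested gene in the 9 members and in the lists named on the vertical axis, 1 point a gene, with the list's median as a bar and genes past an adjusted p of 0.05 in red. STAT3 targets have a median of 0.74, or 0.68 without Hamp, and 4 called genes, and STAT2 complex targets a median of -1.39 and none.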

How the data were processed

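Whole-colon RNA of 2 Control and 3 NT-3N 3hr mice was hybridised, Cy3-labelled, to 5 arrays of 1 slide with 1 scan time, so neither could be a block. The authors extracted spot intensity values with Agilent Feature Extraction 11.0.1.1, and the deposited intensity is background-subtracted and detrended within the array. The authors also deposited a log2 table of 37380 probes, which matched quantile-normalized log2 processed signal at a correlation of at least 0.999993 across probes and was used as an alternative only. Precision is limited by the number of arrays.

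From the scanner files, control spots and outlier spots (69 to 184 of 59305 an array) were left out, log2 signal was quantile-normalized, and probes well above background on at least 2 arrays were kept. Accessions were matched to symbols in RefSeq GRCm38.p6, which named 32994 of 56605 probes. The brightest probe stood for a gene, and a second fit over all probes covered the dimmer ones. NT-3N 3hr was set against Control in limma 3.58.1 under R 4.3.3 (lmFit, eBayes with an intensity trend, two-sided, Benjamini-Hochberg adjustment over all features, threshold 0.05) and checked on simulated data. A local-pooled-error test, the kind named in the study's methods, was written here after its published description and run as an alternative. Nothing in the labels pairs mice of one number, and deviations of same-numbered arrays from their group means correlated at 0.13 and 0.036.

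All members are named. Pathway genes are named where their adjusted p was under 0.05, along with the 3 largest changes in each direction among genes well above background on all arrays without overlap; Jak3, Irf9, Il6st and Il11ra1 are added for their role, and Cavin1 as a neighbour. For members that span at least 0.5 on the log2 scale, the 3 genes of highest Pearson correlation are named. The members and lists were chosen with earlier results of these data known. The fit of probe pairs and the difference of Stat3 from other features within an array, and the lists over genes well above background on all arrays, were added after values had been seen. One gene of the pathway lists is not reported here.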

Additional observations from a re-analysis of the deposited data

How the results depend on the processing

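The call of Stat3 was lost with no filter on dim probes (log2 fold change 0.74, adjusted p of 0.11), with no intensity trend (0.74 and 0.18), with the mean of its probes (0.81 and 0.057) and with the replicate number as a block (0.77 and 0.49). The block leaves NT-3N replicate 3 without a partner, so that array drops out of the comparison, and limma then called 0 features; the numbers are not known to pair mice. Leaving out each array gave 0.71 to 0.78. Member genes called higher were then 0 with no filter, no trend, the block and the mean of probes, and 0 to 1 without an array; member probes called higher were 0 with no filter, no trend and the block, 0 to 1 without an array, and 2 with array weights, when the dimmer Stat3 probe passed (adjusted p of 0.038). Pathway genes called higher numbered 0 with no filter, no trend or the block, 10 with array weights, 11 with the local-pooled-error test, and 0 to 7 as each array was left out (0 without the second or the third NT-3N array, 3 without the first control array). Over all 32917 features, in either direction, 47 were called as reported, 172 with array weights and 348 with the local-pooled-error test. Array weights called 206 of 41590 probes, against 70 as reported. The local-pooled-error test called 13 pathway genes lower, where limma called 0. In simulated data a far larger share of its calls than of limma's was false, but those data followed limma's own variance model.

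Signs of values that were never called turned as follows. Tyk2 was at 0.021 with median scaling and 0.048 with array weights, and from -0.067 to 0.055 as each array was left out. Stat5a was at 0.16 with the mean of probes and from -0.14 to 0.055 in those runs. Jak2 was at 0.018 with the mean of probes. Over the left-out arrays Stat5b ranged from -0.12 to 0.0035, Stat4 from -0.19 to 0.54 and the dimmer Jak2 probe from -0.0076 to 0.23. Stat2, Stat6 and Jak1 kept their direction under all 18 alternatives. The cause was not tested. Background correction by normexp used the median spot signal.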
